A study of Mus musculus with 6 samples.

Results

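Transcripts of 54 genes of the synaptic vesicle cycle were followed in cells sorted as neurons from the mouse cortex around an infarct. The genes were chosen by name, with earlier results of these data known, so counts over the 54 are descriptions and not tests. Their symbols were looked up among the 24419 gene symbols of the deposited table, where all 54 were found. They were divided by role into 21 vesicle genes (12 of vesicle proteins and 9 of calcium sensors), 11 genes of SNAREs and their fusion machinery, 15 genes of the active zone and of priming, and 7 genes of endocytosis. Every library came from wild-type male C57BL/6N mice in which the middle cerebral artery had been occluded for 60 min. The 15-HETrE group was then given 15-HETrE by vein, a hydroxylated fatty acid derived from dihomo-gamma-linolenic acid (600 ng in 150 µL of phosphate-buffered saline), at 24, 48 and 72 h after onset. The vehicle group received the vehicle on the same schedule. On day 4, peri-infarct tissue was digested with pronase, and Thy1+ cells were collected by sorting, with 3 RNA-seq libraries per group. Cells with ACSA2 (an astrocyte antigen), CD31 (endothelial), CD45 (leukocyte) or O4 (oligodendrocyte lineage) on their surface were left out. The labels give neither age nor the number of animals behind a library, so p-values speak only for the spread between libraries, which can be technical.

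Neurotransmitter is stored in synaptic vesicles that dock at the active zone, a protein scaffold of the presynaptic membrane. Priming factors bring the vesicle SNARE together with the SNAREs of the plasma membrane, calcium entering through nearby channels acts on synaptotagmins, and the vesicle fuses. The SNARE complex is then taken apart, and membrane and vesicle proteins are retrieved by clathrin and dynamin. In the cortex bordering an infarct, presynaptic terminals are lost and formed again as surviving neurons reconnect.

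Library values are listed as 15-HETrE 1, 15-HETrE unnumbered and 15-HETrE combined, and as vehicle 1, vehicle 2 and vehicle combined, after the names of the deposited columns. The libraries held 5405245 to 22558400 reads assigned to genes, and vehicle combined was the shallowest. In the names, 15-HETrE 1, vehicle 1 and vehicle 2 share a prefix, and 15-HETrE unnumbered alone bears another. The columns named combined bear neither and share only that word. They were grouped by it, and the 3 resulting levels are called prefixes here. The labels leave unsaid what the prefixes and the word combined stand for, and a combined column may be a pool of samples, so that n counts deposited columns. Levels are in CPM (counts scaled to a common library total) with a size factor of each library, as the authors scaled them. Fold changes are differences of log2(CPM + 1), 15-HETrE minus vehicle, from limma over the 14523 genes whose mean reached 1 CPM, and they understate the change of low genes.

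Vesicle cycle transcripts had higher values in the 15-HETrE libraries for nearly every gene, and no single gene passed the test. Of the 54 genes, 53 had a positive log2 fold change, as had 51% of all genes tested, and the median was 0.72 beside 0.02 over all genes tested. At an adjusted p of 0.05 (limma), 0 of the 54 were called higher and 0 lower, where 0% of all genes were called in either direction and the smallest adjusted p among the 54 was 0.334. At an unadjusted p under 0.05, 20 of the 54 were higher, beside 4.27% of all genes, and 0 were lower, beside 5.23% of all genes. For 14 of the 54, every 15-HETrE library lay above every vehicle library, beside 6.84% of all genes, and for 0 of the 54 every one lay below, beside 8.32%. These 14 genes were Rab3c, Syt3, Syt7, Syt11, Doc2b, Vamp1, Vamp2, Cplx1, Cplx2, Unc13a, Unc13b, Bsn, Pclo and Sh3gl2. All 54 genes passed the filter on low values, so none was left out of these counts. In such bulk samples, more cells carrying a transcript and more transcript per cell cannot be told apart. Other tools bear on the count of 0. On the recovered reads, the quasi-likelihood test of edgeR called 0 of the 54 in either direction, with 19 higher at an unadjusted p under 0.05, beside 3.64% of all genes, and 0 lower, beside 4.84%. DESeq2 called 2 higher, Unc13a and Vamp1, beside 0.241% of all genes, and 0 lower, beside 0.895%. With limma's library weights, 30 of the 54 were called higher, beside 7.29% of all genes, and 0 lower, beside 9.41%. Those weights were 3.16, 0.508 and 0.441 for the 15-HETrE libraries, against 1.82, 3.75 and 0.206 for the vehicle libraries. That fit thus leaned on 15-HETrE 1, vehicle 1 and vehicle 2, and least on vehicle combined. The count of 20 at an unadjusted p under 0.05 was 8 without 15-HETrE combined (2.35% of all genes), 11 without 15-HETrE 1 (2.64%) and 11 without vehicle 2 (2.35%). It was 17 without vehicle combined (789 of the 14523 genes), 22 without 15-HETrE unnumbered (703 genes) and 27 without vehicle 1 (773 genes). Without both combined libraries, 17 of the 54 were higher at an unadjusted p under 0.05 (5.27% of all genes) and 0 lower (9.75%), 52 had a positive log2 fold change, and the median was 0.688.

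**Figure D1:**
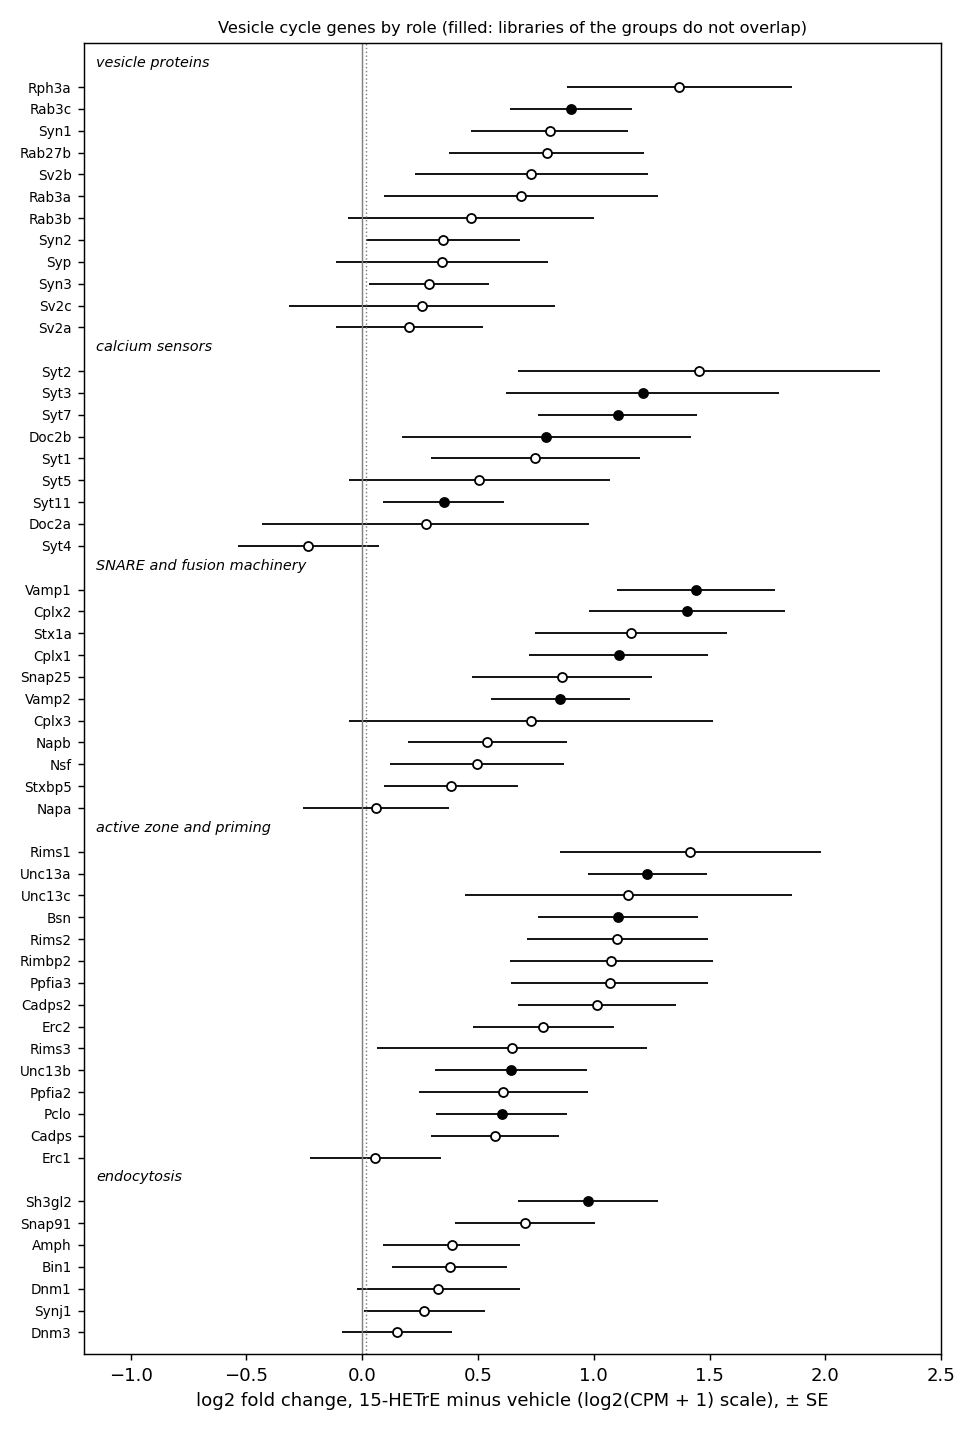
Log2 fold change of each of the 54 genes, 15-HETrE minus vehicle on the log2(CPM + 1) scale (x axis, points with bars of 1 SE from limma), grouped by role and sorted within a role. Filled points mark the 14 genes whose libraries do not overlap between the groups, the dotted line is the median of all genes tested, and Syt4 is the only gene below 0.

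Differences within a shared name prefix, or between the libraries named combined, had the same sign as the whole comparison for most of these genes. Within the first prefix, 15-HETrE 1 lay above the mean of vehicle 1 and vehicle 2 for 53 of the 54 genes (50.2% of all genes), with a median difference of 0.89 on the log2 scale. Within the combined pair, 15-HETrE combined lay above vehicle combined for 49 of the 54 (52.9% of all genes), with a median of 0.83. Both differences were above 0 for 48 of the 54, against 30.9% of all genes. With the prefix as a batch term in limma, 26 of the 54 were higher at an unadjusted p under 0.05 (8.59% of all genes) and 0 lower (7.3%), and none was called at an adjusted p of 0.05. The remaining library, 15-HETrE unnumbered, shares its prefix with no vehicle library, so it adds nothing to the group difference of that fit. It exceeded vehicle 1 for 30 of the 54 genes (45.2% of all genes), vehicle 2 for 50 (49.5%) and vehicle combined for 40 (53.1%). The highest value of a gene lay in 15-HETrE 1 for 29 of the 54, against 12.3% of all genes, and the lowest lay in vehicle 2 for 29 of the 54, against 13.2%. Summed over the 54 genes, the level was 16066, 10576 and 13945 CPM in the 15-HETrE libraries, against 10513, 6668 and 7800 CPM in the vehicle libraries, so that the sum of 15-HETrE unnumbered was barely above that of vehicle 1.

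**Figure D2:**
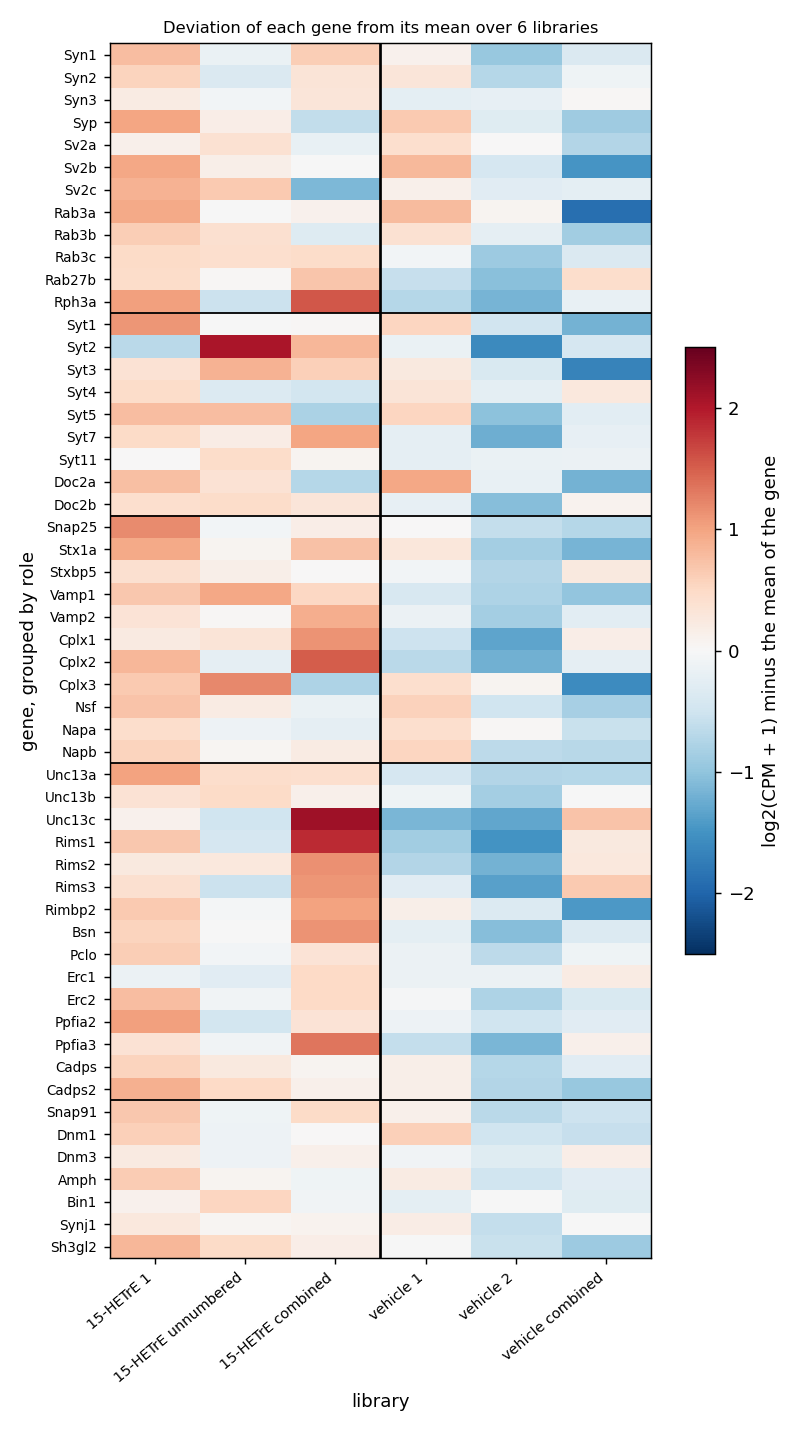
Deviation of log2(CPM + 1) from the mean of each gene over the 6 libraries (colour, red above and blue below), with the 54 genes in rows by role and the libraries in columns, 15-HETrE left of vehicle. Most genes are red in 15-HETrE 1 and blue in vehicle 2, while 15-HETrE combined and vehicle combined differ from the other libraries of their group for some active zone and vesicle genes.

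Markers of neurons and of other cells differed between the same libraries. Pan-neuronal markers outside the 54 genes had higher values in 15-HETrE for 13 of 14 genes (median log2 fold change 0.75), and summed to 2018 to 4803 CPM in 15-HETrE and 1094 to 2242 CPM in vehicle. The 14 include Thy1, the gene of the antigen used for the sort, with a log2 fold change of 0.24. Fibroblast markers had lower values for 8 of 8 genes, with sums of 1223, 2198 and 1271 CPM in the 15-HETrE libraries, against 12684, 10320.0 and 1471 CPM in the vehicle libraries. The high sums lay in vehicle 1 and vehicle 2, while within the combined pair 3 of 8 genes were higher in 15-HETrE, and Postn alone among them was at 0 in a library, vehicle combined. Pericyte markers had lower values for 7 of 7 genes, with sums of 204 to 594 CPM in 15-HETrE and 873 to 1176 CPM in vehicle, and markers of dividing cells for 7 of 7, with sums of 101 to 171 CPM in 15-HETrE and 423 to 582 CPM in vehicle, Cdk1 being at 0 in 15-HETrE combined and vehicle combined. Astrocyte markers had higher values for 7 of 8 genes, with sums of 791, 501 and 3961 CPM in the 15-HETrE libraries, against 446, 323 and 2140.0 CPM in the vehicle libraries, and none was at 0. The sum was highest in the combined library of each group, and all 8 genes had their highest value in 15-HETrE combined. Oligodendrocyte markers, although O4+ cells were to be left out, summed to 16088, 31468 and 20767 CPM in the 15-HETrE libraries, against 15021, 22591 and 22346 CPM in the vehicle libraries, with higher values in 15-HETrE for 7 of 8 genes. All 8 were highest in 15-HETrE unnumbered, and the difference was above 0 for 0 of 8 within the first prefix and for 3 of 8 within the combined pair. Excitatory neuron markers had higher values for 8 of 8 genes, inhibitory neuron markers for 7 of 9 and neuroblast markers for 5 of 6, and sums were 1422 to 5661 CPM in 15-HETrE and 588 to 2066 CPM in vehicle, 431 to 789 CPM in 15-HETrE and 328 to 576 CPM in vehicle, and 110.5 to 211 CPM in 15-HETrE and 91.6 to 134 CPM in vehicle. Dlx2 and Sp8, of the neuroblast list, were at 0 in vehicle combined, and Sp8 also in 15-HETrE unnumbered. Microglia markers had higher values for 5 of 7 genes tested, oligodendrocyte precursor markers for 3 of 6 and endothelial markers for 3 of 8, with sums of 16.9 to 85.2 CPM in 15-HETrE and 18.1 to 113 CPM in vehicle, 2549 to 3621 CPM in 15-HETrE and 2701 to 4238 CPM in vehicle, and 39.9 to 115 CPM in 15-HETrE and 107 to 209 CPM in vehicle. Aif1 (microglia) was at 0 in vehicle combined and Tek (endothelial) in 15-HETrE unnumbered. No gene of these lists passed limma's test (smallest adjusted p = 0.131) or edgeR's. DESeq2 called Nefl (pan-neuronal) higher and Pdgfrb (pericyte), Mki67 and Mcm6 (dividing cells) lower, beside 0.241% higher and 0.895% lower among all genes. With library weights, 9 of 14 pan-neuronal, 5 of 8 excitatory and 3 of 9 inhibitory neuron markers were called higher. Of the astrocyte markers, 7 of 8 were called higher and 1 lower. Called lower were 7 of 8 fibroblast, 7 of 7 pericyte and 7 of 7 dividing cell markers. The neuroblast and oligodendrocyte precursor lists had 1 higher each, and the endothelial, microglia and oligodendrocyte lists 1 lower each. Among all genes, 7.29% were called higher and 9.41% lower with these weights. The markers' part in the values of the vesicle cycle genes was not tested. The mean level of the 54 genes relative to that of the pan-neuronal markers, a difference of mean log2 levels, was -0.002, -0.003 and -0.18 in the 15-HETrE libraries, against 0.02, 0.12 and -0.03 in the vehicle libraries. On that relative scale the groups overlapped, and the average was -0.06 ± 0.10 in 15-HETrE and 0.035 ± 0.078 in vehicle (SD, n = 3 each).

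Of the role medians, that of the active zone was at the top and that of endocytosis at the bottom. The median log2 fold change was 1.01 for the 15 active zone and priming genes, 0.85 for the 11 SNARE and fusion genes, 0.69 for the 21 vesicle genes and 0.38 for the 7 endocytosis genes. Values were positive for 15 of 15, 11 of 11, 20 of 21 and 7 of 7 of them in that order, and 8, 6, 4 and 2 reached an unadjusted p under 0.05, beside 51% positive and 4.27% higher at that p among all genes. Endocytosis had the lowest median under each of the 21 alternatives run, and the active zone the highest in 19. The exceptions were without 15-HETrE combined, where SNARE genes stood at 0.822 and the active zone at 0.725, and without vehicle 1, where they stood at 1.09 and 0.96. Whether the roles differ was not tested, since the members were chosen with results of these data known. The vesicle median was 0.39 without 15-HETrE 1, 0.37 without vehicle combined and 0.43 with a pseudocount of 5, and the endocytosis median was 0.205 without 15-HETrE 1, 0.235 without vehicle 2, 0.58 without vehicle 1 and 0.61 with library weights.

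Levels of the roles in single libraries showed the same order of groups with some overlap. The mean log2 level of the active zone genes was 7.28, 6.71 and 7.55 in the 15-HETrE libraries, against 6.45, 5.88 and 6.59 in the vehicle libraries. That of the SNARE genes was 7.64, 7.24 and 7.37 in the 15-HETrE libraries, against 7.05, 6.34 and 6.41 in the vehicle libraries. Neither overlapped between the groups. The vesicle proteins stood at 7.06, 6.47 and 6.54 in the 15-HETrE libraries, against 6.55, 5.88 and 5.83 in the vehicle libraries, so that vehicle 1 lay above 15-HETrE unnumbered and 15-HETrE combined. For the calcium sensors the levels were 5.85, 5.97 and 5.54 in the 15-HETrE libraries, against 5.64, 4.74 and 4.91 in the vehicle libraries, where vehicle 1 lay above 15-HETrE combined. The endocytosis genes stood at 8.11, 7.75 and 7.73 in the 15-HETrE libraries, against 7.75, 7.19 and 7.29 in the vehicle libraries, and vehicle 1 was level with 15-HETrE unnumbered and above 15-HETrE combined. Relative to the pan-neuronal markers, on the log2 scale, the endocytosis genes were at 0.93, 0.97 and 0.57 in the 15-HETrE libraries. In the vehicle libraries they were at 1.14, 1.36 and 1.06, so every 15-HETrE library was lower than any vehicle library. The active zone genes were at 0.10, -0.07 and 0.39 in the 15-HETrE libraries, against -0.16, 0.05 and 0.36 in the vehicle libraries, with overlap. The SNARE genes, vesicle proteins and calcium sensors overlapped too, with mean differences (15-HETrE minus vehicle) of 0.007, -0.214 and -0.125. Endocytosis was thus the only role of the 5 apart on this scale, which was not tested. The scale depends on the reference list. The mean log2 level of the pan-neuronal markers differed by 0.815 between the groups (15-HETrE minus vehicle), and that of the endocytosis genes by 0.455. No share over other sets of genes was computed on this scale.

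**Figure D3:**
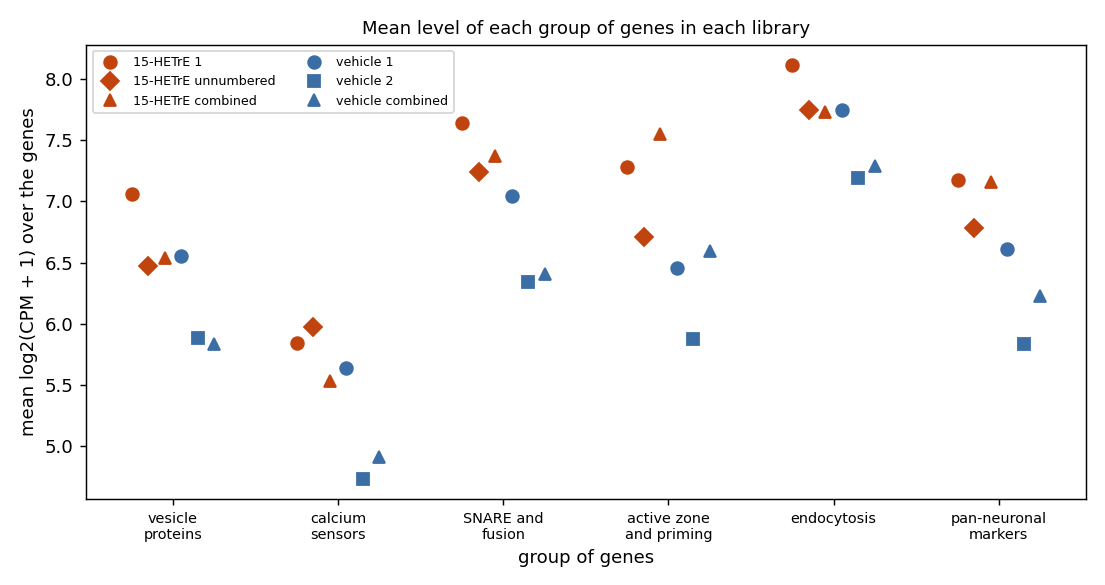
Mean log2(CPM + 1) over the genes of each role and over 14 pan-neuronal markers (y axis) in each library (points; red 15-HETrE, left, and blue vehicle, right, with a shape for each library). The 3 libraries of a group stand apart from those of the other for SNARE, active zone and pan-neuronal genes and overlap for vesicle proteins, calcium sensors and endocytosis.

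Among the active zone genes, Unc13a had the smallest p of all 54. It encodes Munc13-1, which opens syntaxin and primes vesicles for release (chromosome 8, 71624417 to 71671757, GRCm38), and it had 279, 187 and 184 CPM in the 15-HETrE libraries, against 104, 83.4 and 84.0 CPM in the vehicle libraries. Every 15-HETrE library lay well above every vehicle library. Means were 217 ± 53.9 CPM in 15-HETrE and 90.4 ± 11.7 CPM in vehicle (SD, n = 3 each), a log2 fold change of 1.23 (SE 0.26, limma adjusted p = 0.334), and DESeq2's adjusted p was 0.00507. Its paralogs showed smaller or less regular differences: Unc13b had 56.6, 62.0 and 47.8 CPM in the 15-HETrE libraries, against 41.0, 23.8 and 43.7 CPM in the vehicle libraries, without overlap. Unc13c had 37.3, 24.4 and 154 CPM in the 15-HETrE libraries, against 15.1, 13.6 and 57.9 CPM in the vehicle libraries, and vehicle combined exceeded 15-HETrE 1 and 15-HETrE unnumbered.

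The giant scaffold proteins Bassoon and Piccolo organise the active zone and were encoded by the most abundant transcripts of the role in CPM. Bsn (chromosome 9, 108096022 to 108190384) had 751, 506 and 1116 CPM in the 15-HETrE libraries, against 431, 245 and 402 CPM in the vehicle libraries, a log2 fold change of 1.10 (SE 0.34, limma adjusted p = 0.424). Pclo (chromosome 5, 14514918 to 14863459) had 931, 576 and 768 CPM in the 15-HETrE libraries, against 548, 384 and 557 CPM in the vehicle libraries, a log2 fold change of 0.60 (SE 0.28, limma adjusted p = 0.552). The groups did not overlap for either gene, but for Pclo 15-HETrE unnumbered and vehicle combined lay close together. Cadps2, a CAPS protein that acts in vesicle priming, had 171, 129.7 and 99.2 CPM in the 15-HETrE libraries, against 102, 54.7 and 46.9 CPM in the vehicle libraries, a log2 fold change of 1.01 (SE 0.34, limma adjusted p = 0.457); 15-HETrE combined lay just under vehicle 1. RIM proteins link vesicles, through Rab3, to calcium channels. Rims2 had 224, 227 and 414.9 CPM in the 15-HETrE libraries, against 113, 81.9 and 227 CPM in the vehicle libraries, a log2 fold change of 1.10 (SE 0.39, limma adjusted p = 0.460), and vehicle combined was level with the lower 15-HETrE libraries. Rims1 had 256, 119.9 and 584 CPM in the 15-HETrE libraries, against 87.3, 55.9 and 189 CPM in the vehicle libraries, a log2 fold change of 1.42 (SE 0.56, limma adjusted p = 0.489), highest in 15-HETrE combined, and vehicle combined lay above 15-HETrE unnumbered. Other genes of the role had log2 fold changes of 0.06 (Erc1, an ELKS scaffold also made outside neurons) to 1.07 (Rimbp2, a RIM-binding protein), with 1.07 and 0.61 for the liprins Ppfia3 and Ppfia2, 0.78 for the neuronal ELKS gene Erc2, 0.65 for Rims3 and 0.57 for Cadps.

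**Figure D4:**
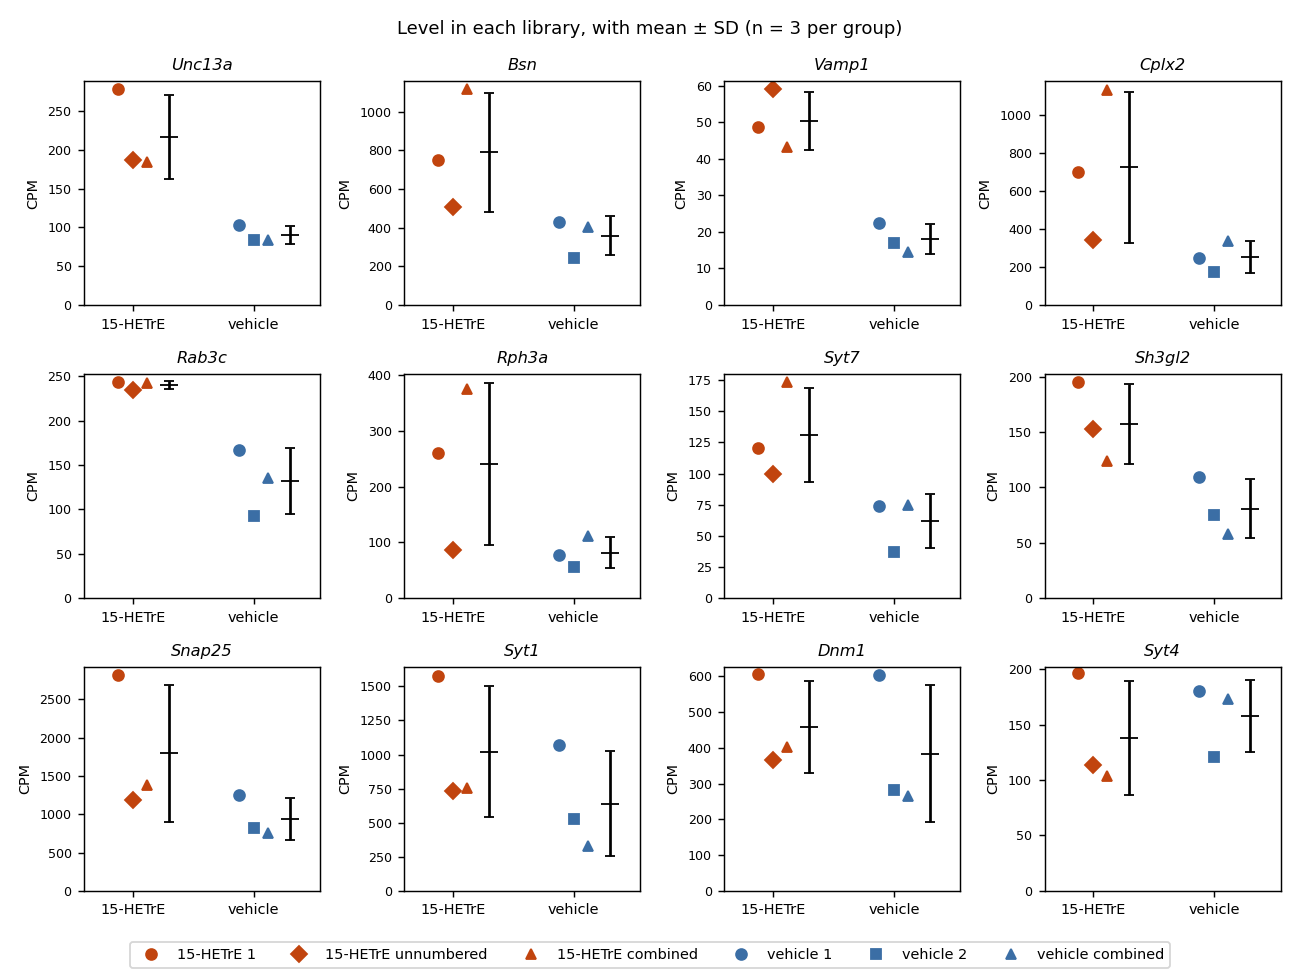
CPM in each library for 12 of the genes (points, a shape for each library; 15-HETrE left, vehicle right; y axes start at 0 and differ between panels), with the mean and SD of each group (n = 3) beside them. The groups are apart for Unc13a, Bsn, Vamp1, Rab3c, Syt7 and Sh3gl2, nearly touch for Cplx2, and overlap for Rph3a, Snap25, Syt1, Dnm1 and Syt4.

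SNARE proteins and the factors that act on them came next. Vamp1 (synaptobrevin 1, a vesicle SNARE, chromosome 6, 125215551 to 125245964) had 48.6, 59.1 and 43.4 CPM in the 15-HETrE libraries, against 22.5, 17.0 and 14.6 CPM in the vehicle libraries, a log2 fold change of 1.44 (SE 0.34, limma adjusted p = 0.358), and DESeq2's adjusted p was 0.0160. All 15-HETrE libraries lay clearly above all vehicle libraries. Vamp2, the main vesicle SNARE of forebrain synapses, had 366, 295 and 543 CPM in the 15-HETrE libraries, against 259, 159 and 239 CPM in the vehicle libraries, a log2 fold change of 0.85 (SE 0.30, limma adjusted p = 0.460), also without overlap. Complexins bind the assembled SNARE complex and control when it completes fusion. Cplx2 had 702, 339.5 and 1130.2 CPM in the 15-HETrE libraries, against 249, 171 and 339 CPM in the vehicle libraries, a log2 fold change of 1.40 (SE 0.42, limma adjusted p = 0.422). Cplx1 had 189.6, 203 and 356 CPM in the 15-HETrE libraries, against 113, 65.1 and 183 CPM in the vehicle libraries, a log2 fold change of 1.11 (SE 0.39, limma adjusted p = 0.460). For both complexins the groups were apart only by a small gap between vehicle combined and the lowest 15-HETrE library, and 15-HETrE combined was highest. Cplx3 was read at low depth, with 4 reads in vehicle combined, and overlapped.

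Snap25, a SNARE of the plasma membrane, was the most abundant of the 54 transcripts. It had 2818, 1181 and 1386 CPM in the 15-HETrE libraries, against 1246, 819.9 and 749 CPM in the vehicle libraries, a log2 fold change of 0.86 (SE 0.39, limma adjusted p = 0.526). The high value of 15-HETrE 1 stood apart, and 15-HETrE unnumbered lay under vehicle 1. Stx1a, the syntaxin partner of Snap25, had 104, 55.9 and 89.3 CPM in the 15-HETrE libraries, against 65.2, 29.1 and 23.2 CPM in the vehicle libraries, a log2 fold change of 1.16 (SE 0.41, limma adjusted p = 0.460), with 15-HETrE unnumbered under vehicle 1. The ATPase Nsf and its adaptors, which take the SNARE complex apart after fusion, had log2 fold changes of 0.49 (Nsf), 0.54 (Napb, beta-SNAP) and 0.06 (Napa, alpha-SNAP), and tomosyn (Stxbp5), an inhibitor of SNARE assembly, 0.38, all with overlap. Their smallest adjusted p was 0.643 for Napb (limma).

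Per kilobase of annotated exons, Snap25 averaged 264 CPM per kb in 15-HETrE and 138 in vehicle libraries, and Syt11 186 CPM per kb in 15-HETrE and 144 in vehicle libraries. Snap25 was the highest of the 54 on this level scale in 15-HETrE and Syt11 in vehicle. Cplx2, with 147 CPM per kb in 15-HETrE and 51.4 in vehicle libraries, stood above Syt1 in 15-HETrE and under Syt1, Dnm1, Vamp2 and Cplx1 in vehicle. The lowest in either group were Doc2b, at 1.23 CPM per kb in 15-HETrE and 0.659 in vehicle libraries, and Syt2, at 1.82 and 0.462. Exon lengths were unions over all annotated transcripts and so may exceed the transcripts used in these cells.

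The calcium sensor role, which takes in the synaptotagmin and Doc2 families, held the only gene with a negative difference. Syt7, a slow sensor of high calcium affinity (chromosome 19, 10389090 to 10453180), had 121, 99.5 and 173 CPM in the 15-HETrE libraries, against 74.0, 36.8 and 74.8 CPM in the vehicle libraries, a log2 fold change of 1.10 (SE 0.34, limma adjusted p = 0.422). All its 15-HETrE libraries were higher, 15-HETrE combined most. Syt3, of the same high-affinity class, had 14.2, 20.6 and 16.9 CPM in the 15-HETrE libraries, against 12.9, 8.14 and 2.70 CPM in the vehicle libraries, a log2 fold change of 1.21 (SE 0.59, limma adjusted p = 0.565); its 15-HETrE values were higher by little over vehicle 1 and by more over vehicle combined, where 15 reads were counted. Syt1, the fast sensor of forebrain release, had 1577, 734 and 753 CPM in the 15-HETrE libraries, against 1068, 528 and 326 CPM in the vehicle libraries, a log2 fold change of 0.75 (SE 0.45, limma adjusted p = 0.627). Here vehicle 1 lay above 15-HETrE unnumbered and 15-HETrE combined. Syt2, the fast sensor of hindbrain and of some inhibitory synapses, had 3.32, 27.3 and 11.2 CPM in the 15-HETrE libraries, against 5.14, 1.30 and 4.14 CPM in the vehicle libraries, a log2 fold change of 1.45 (SE 0.78, limma adjusted p = 0.597), and its difference rested on 15-HETrE unnumbered and 15-HETrE combined, with 15-HETrE 1 under vehicle 1 and vehicle combined.

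Syt11 and Syt4 do not act as calcium triggers in the manner of Syt1 and were counted in the role by family. Syt11, which is also expressed in glia, was the most abundant gene of the role by the mean CPM over all 6 libraries, though Syt1 was above it in the 15-HETrE mean. It had 851, 1159 and 887 CPM in the 15-HETrE libraries, against 728, 757 and 762 CPM in the vehicle libraries, a log2 fold change of 0.35 (SE 0.26, limma adjusted p = 0.695). Its vehicle values were nearly equal, and every 15-HETrE value was above them. Syt4 had 196, 114 and 104 CPM in the 15-HETrE libraries, against 181, 120.4 and 173 CPM in the vehicle libraries, a log2 fold change of -0.23 (SE 0.30, limma adjusted p = 0.827). Its groups overlapped fully, with 15-HETrE 1 highest and 15-HETrE combined lowest, and its difference was 0.30 with library weights and 0.018 without both combined libraries. Syt5, Doc2a and Doc2b had log2 fold changes of 0.51, 0.27 and 0.80, and both Doc2 genes had few reads, 14 at the lowest for Doc2a and 23 for Doc2b, each in vehicle combined.

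Rph3a and Rab3c had the largest differences among the vesicle proteins. Rab3c, a Rab3 GTPase carried on synaptic vesicles (chromosome 13, 110054187 to 110280996), had 243, 234 and 243 CPM in the 15-HETrE libraries, against 167, 92.7 and 135 CPM in the vehicle libraries, a log2 fold change of 0.90 (SE 0.26, limma adjusted p = 0.402). The 15-HETrE values were nearly the same in all 3 libraries and higher than every vehicle value. Rabphilin (Rph3a), an effector of Rab3 and Rab27, had 260.0, 86.5 and 375 CPM in the 15-HETrE libraries, against 76.7, 55.9 and 112 CPM in the vehicle libraries, a log2 fold change of 1.37 (SE 0.49, limma adjusted p = 0.460). Values of 15-HETrE 1 and 15-HETrE combined were far above the rest, while 15-HETrE unnumbered lay within the vehicle range. Rab27b, a GTPase of secretory vesicles, had 47.5, 35.1 and 56.2 CPM in the 15-HETrE libraries, against 22.5, 16.1 and 46.6 CPM in the vehicle libraries, a log2 fold change of 0.80 (SE 0.42, limma adjusted p = 0.594), with vehicle combined among the 15-HETrE values. Rab3a, the most studied Rab3 of synapses, and Rab3b had log2 fold changes of 0.69 and 0.47. The value of Rab3a in vehicle combined, 17.6 CPM, was far under its other 5 values of 67.5 to 132 CPM, and the difference was -0.09 without that library.

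Genes of the vesicle membrane overlapped between the groups. Synaptophysin (Syp), a major protein of the vesicle membrane, had 273, 154 and 89.5 CPM in the 15-HETrE libraries, against 218, 112 and 74.5 CPM in the vehicle libraries, a log2 fold change of 0.34 (SE 0.46, limma adjusted p = 0.829). It ran high in 15-HETrE 1 and vehicle 1 and low in both combined libraries. The SV2 glycoproteins, of which SV2A is the binding site of levetiracetam, had log2 fold changes of 0.20 (Sv2a), 0.73 (Sv2b) and 0.26 (Sv2c), and their groups overlapped. Without 15-HETrE 1 the values of Syp and Sv2c were -0.06 and -0.11, and without vehicle combined that of Sv2a was -0.115.

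Synapsins, phosphoproteins that hold vesicles in the reserve pool, differed among themselves. Syn1 (chromosome X, 20860511 to 20921004) had 367, 190.1 and 328 CPM in the 15-HETrE libraries, against 231, 110.5 and 166 CPM in the vehicle libraries, a log2 fold change of 0.81 (SE 0.34, limma adjusted p = 0.507). Syn2 (chromosome 6, 115134902 to 115282006) had 225, 119 and 189.6 CPM in the 15-HETrE libraries, against 187, 92.1 and 142 CPM in the vehicle libraries, a log2 fold change of 0.35 (SE 0.33, limma adjusted p = 0.757). Syn3 had a log2 fold change of 0.29. For Syn1 and Syn2 taken alone, vehicle 1 lay above 15-HETrE unnumbered. The log2 ratio of Syn1 to Syn2 within a library did not overlap: it was 0.70, 0.67 and 0.79 in the 15-HETrE libraries, against 0.30, 0.26 and 0.23 in the vehicle libraries. It averaged 0.72 ± 0.059 in 15-HETrE and 0.26 ± 0.037 in vehicle (SD, n = 3 each), a difference of 0.46, larger than the spread of either group. With 3 libraries against 3, an exact two-sided permutation test cannot give a p under 0.1, so no test is given for a ratio.

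The ratio was taken for 11 pairs of related genes, and for 3 of them the groups did not overlap. No share over other pairs of genes was computed. For single genes, the groups did not overlap in 6.84% of all genes with 15-HETrE higher and in 8.32% with it lower. Bsn to Pclo stood at -0.31, -0.19 and 0.54 in the 15-HETrE libraries, against -0.34, -0.65 and -0.47 in the vehicle libraries, but vehicle 1 and 15-HETrE 1 lay close together. Napb to Napa stood at 1.09, 1.16 and 1.40 in the 15-HETrE libraries, against 1.09, 0.28 and 0.84 in the vehicle libraries, where vehicle 1 nearly touched 15-HETrE 1. The other 8 pairs overlapped, among them Cplx1 to Cplx2, at -1.88, -0.74 and -1.67 in the 15-HETrE libraries, against -1.13, -1.38 and -0.89 in the vehicle libraries, Vamp2 to Vamp1, at 2.88, 2.30 and 3.61 in the 15-HETrE libraries, against 3.46, 3.15 and 3.95 in the vehicle libraries, and Rims1 to Rims2, at 0.19, -0.92 and 0.49 in the 15-HETrE libraries, against -0.37, -0.54 and -0.27 in the vehicle libraries. Rab3a to Rab3c had the widest spread in vehicle, from -2.87 in vehicle combined to -0.37 in vehicle 2. A ratio within a library shows unequal change of the pair, not which gene changed.

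**Figure D5:**
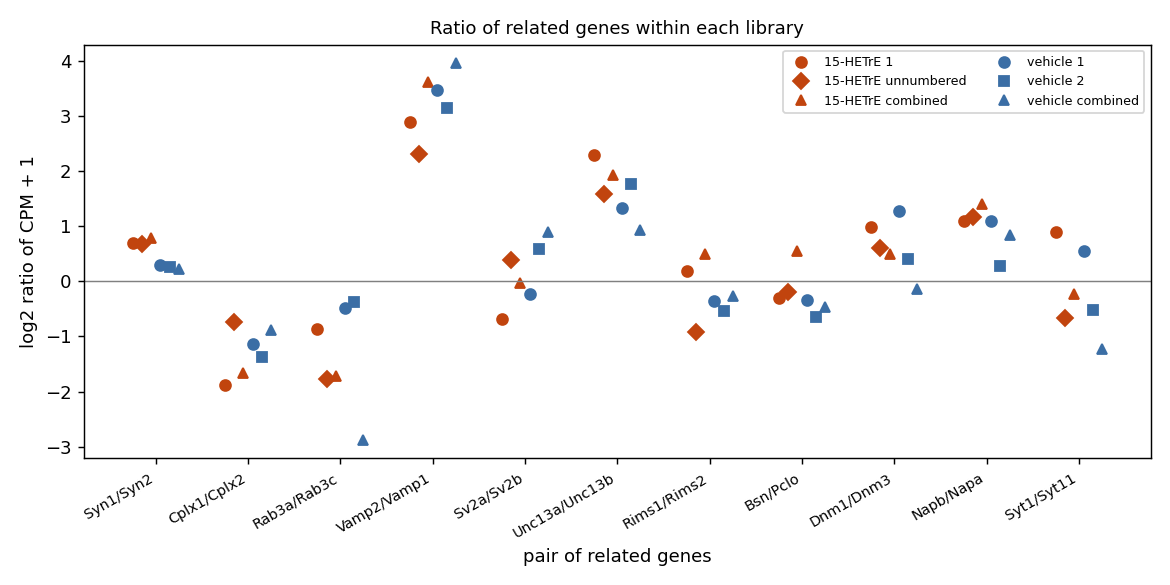
Log2 ratio of CPM + 1 for 11 pairs of related genes (x axis) within each library (points; red 15-HETrE, left, and blue vehicle, right, with a shape for each library). Syn1/Syn2 separates the groups with the narrowest spread, Bsn/Pclo and Napb/Napa separate them by small gaps, and the other 8 pairs overlap.

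Promoter windows were read for the genes whose values the results turn on. RefSeq windows on GRCm38.p6, from 250 bases before a gene's start to 50 bases after it, were at hand for 43 of the 54 genes. The windows of Unc13a, with the smallest p, of Syn1 and Syn2, whose ratio separated the groups, and of the scaffold pair Bsn and Pclo are shown 5′ to 3′ on the strand of the gene. Capitals mark matches, on either strand, to a cyclic AMP response element (TGACGTCA), an NRF1 site (the palindromic consensus of nuclear respiratory factor 1) or a GC box (GGGCGG).
Unc13a (chr8:71671708-71672007, minus strand): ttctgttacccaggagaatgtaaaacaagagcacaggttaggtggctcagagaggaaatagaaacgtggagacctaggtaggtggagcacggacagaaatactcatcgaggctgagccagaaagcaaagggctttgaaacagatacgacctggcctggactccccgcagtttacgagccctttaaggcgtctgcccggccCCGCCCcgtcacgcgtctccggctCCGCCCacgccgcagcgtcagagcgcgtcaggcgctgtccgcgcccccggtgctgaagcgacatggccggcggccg
Syn1 (chrX:20920869-20921168, minus strand): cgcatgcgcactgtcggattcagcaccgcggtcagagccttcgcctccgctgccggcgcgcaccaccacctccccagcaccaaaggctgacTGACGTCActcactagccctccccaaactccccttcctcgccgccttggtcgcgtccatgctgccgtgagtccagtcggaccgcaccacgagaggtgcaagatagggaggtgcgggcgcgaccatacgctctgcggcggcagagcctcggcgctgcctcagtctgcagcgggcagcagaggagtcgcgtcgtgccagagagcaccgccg
Syn2 (chr6:115134652-115134951, plus strand): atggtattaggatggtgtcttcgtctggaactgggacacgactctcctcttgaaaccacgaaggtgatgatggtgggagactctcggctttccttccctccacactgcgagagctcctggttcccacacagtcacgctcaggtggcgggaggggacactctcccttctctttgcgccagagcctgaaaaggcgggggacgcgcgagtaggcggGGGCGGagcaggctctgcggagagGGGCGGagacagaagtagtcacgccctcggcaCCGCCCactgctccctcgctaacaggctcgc
Bsn (chr9:108190334-108190633, minus strand): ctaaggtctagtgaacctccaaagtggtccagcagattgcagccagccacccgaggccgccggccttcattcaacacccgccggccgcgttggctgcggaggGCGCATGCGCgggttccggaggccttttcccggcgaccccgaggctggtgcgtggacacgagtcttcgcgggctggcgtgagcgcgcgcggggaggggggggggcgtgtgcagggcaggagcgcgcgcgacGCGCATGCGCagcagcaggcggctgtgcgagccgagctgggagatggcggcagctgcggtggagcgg
Pclo (chr5:14514668-14514967, plus strand): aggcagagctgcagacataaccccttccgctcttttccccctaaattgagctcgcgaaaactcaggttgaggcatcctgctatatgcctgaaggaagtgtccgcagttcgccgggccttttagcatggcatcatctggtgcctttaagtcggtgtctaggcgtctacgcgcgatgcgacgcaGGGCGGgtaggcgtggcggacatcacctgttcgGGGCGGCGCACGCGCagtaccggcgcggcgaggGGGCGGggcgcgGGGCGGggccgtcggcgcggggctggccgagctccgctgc

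Syn1 held a cyclic AMP response element starting 159 bases before the start and no GC box, and the Syn2 window held 3 GC boxes. Bsn held NRF1 sites 148 and 17 bases before the start and no GC box. Pclo held an NRF1 site 30 bases before the start and 4 GC boxes, 1 of which shares a base with it. Unc13a held GC boxes 50 and 26 bases before the start. Syn2 has another annotated start, whose window held none of these matches. Over the 43 genes, GC boxes were found in 32, 74.4%, against 38.2% of 27025 genes with a window, and NRF1 sites in 7, 16.3%, against 5.19%. Cyclic AMP response elements were found in 3 (Syn1, Napa and Sh3gl2), 6.98%, against 2.03%. E-boxes (CACGTG) were found in 6, 14.0%, against 8.09%, and TATA boxes (TATAAA) in 2, 4.65%, against 15.7%. An exact match to the 15-letter core of the RE1 element, bound by the neuronal repressor REST, was found in 0 of the 43 windows. Among all genes with a window, 0.0407% held an exact match. The Syn1 window shown above holds a stretch that differs from this core by 1 letter. Inexact matches were not counted, so the count of 0 does not show that the element is absent from these genes. Median GC content was 62.3% in the windows of these genes and 52.7% in all windows. Matches are a description of letters and were not related to the differences between the groups.

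Genes of endocytosis had the lowest median, and endophilin stood at their top. Sh3gl2, which encodes endophilin A1, a protein that bends membrane at the neck of budding vesicles (chromosome 4, 85205126 to 85639195), had 196, 153 and 124 CPM in the 15-HETrE libraries, against 109.8, 74.7 and 58.3 CPM in the vehicle libraries, a log2 fold change of 0.97 (SE 0.30, limma adjusted p = 0.422). All 15-HETrE libraries lay above the vehicle libraries. Snap91, which encodes the clathrin adaptor AP180, had 306, 178 and 266 CPM in the 15-HETrE libraries, against 209, 119 and 134 CPM in the vehicle libraries, a log2 fold change of 0.70 (SE 0.30, limma adjusted p = 0.513), with vehicle 1 above 15-HETrE unnumbered. Dnm1, the dynamin that cuts vesicles off the membrane in neurons, was the most abundant of the role in CPM and had 606, 367 and 404 CPM in the 15-HETrE libraries, against 604, 282 and 267 CPM in the vehicle libraries, a log2 fold change of 0.33 (SE 0.35, limma adjusted p = 0.787). Values of 15-HETrE 1 and vehicle 1 were equal to within 2 CPM. The amphiphysin gene Amph had 152, 103 and 90.6 CPM in the 15-HETrE libraries, against 113, 69.4 and 80.4 CPM in the vehicle libraries, a log2 fold change of 0.39 (SE 0.30, limma adjusted p = 0.700), with vehicle 1 above 15-HETrE unnumbered and 15-HETrE combined. Bin1, a relative of amphiphysin that is also expressed in oligodendrocytes and microglia, had 202, 273 and 176 CPM in the 15-HETrE libraries, against 158, 185 and 151 CPM in the vehicle libraries, a log2 fold change of 0.38 (SE 0.25, limma adjusted p = 0.655), and vehicle 2 lay above 15-HETrE combined. The phosphatase synaptojanin (Synj1) and the dynamin Dnm3 had log2 fold changes of 0.27 and 0.15, with overlap.

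Other genes of the vesicle cycle gave a smaller median. Of 74 further presynaptic genes, 73 were in the table and tested, 51 with a positive and 22 with a negative log2 fold change and a median of 0.38. By limma, 0 of them were called higher and 0 lower, and at an unadjusted p under 0.05 there were 9 higher and 0 lower, beside 51% positive, 4.27% higher and 5.23% lower among all genes. edgeR called 0 of them, beside 0% of all genes. DESeq2 called Pacsin1 and Cacna1a higher and 0 lower, beside 0.241% higher and 0.895% lower among all genes. Library weights called 19 higher and 3 lower, beside 7.29% higher and 9.41% lower among all genes. Pacsin1, a membrane-bending partner of dynamin, had 155, 133 and 162 CPM in the 15-HETrE libraries, against 90.8, 56.8 and 63.1 CPM in the vehicle libraries, a log2 fold change of 1.11 (SE 0.26, limma adjusted p = 0.358), and DESeq2's adjusted p was 0.0338. Cacna1a, the pore subunit of the P/Q-type calcium channel, had 259, 198 and 206 CPM in the 15-HETrE libraries, against 136, 103 and 104 CPM in the vehicle libraries, a log2 fold change of 0.95 (SE 0.24, limma adjusted p = 0.394), and DESeq2's adjusted p was 0.0416. Brsk2, a kinase of neuronal polarity, had 146, 129 and 125 CPM in the 15-HETrE libraries, against 78.7, 55.3 and 81.3 CPM in the vehicle libraries, a log2 fold change of 0.90 (SE 0.26, limma adjusted p = 0.394). The groups did not overlap for any of these 3. Of the genes with a negative difference, these had the smallest p: Dnm2, the ubiquitous dynamin, had 109 ± 45.1 CPM in 15-HETrE and 150.3 ± 34.1 CPM in vehicle (SD, n = 3 each), Vamp3, a SNARE of recycling endosomes, 78.4 ± 19.2 CPM in 15-HETrE and 96.1 ± 4.504 CPM in vehicle, and Picalm, the broadly expressed relative of AP180, 340.1 ± 93.4 CPM in 15-HETrE and 432 ± 113 CPM in vehicle. Their log2 fold changes were -0.51, -0.32 and -0.34, each with overlap, and the smallest of their adjusted p-values was 0.637 (limma).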

How the data were processed

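RNA was measured in 6 libraries of sorted cells, 3 per group. Per the labels' protocols, tissue was digested with pronase (75 min), and RNeasy Mini and Ovation SoLo kits served for RNA and libraries. The tools named, per the submitters' processing notes, are HISAT2, Trimmomatic, edgeR and featureCounts, with mm10 as build (annotation, versions, settings not given in the sources used here). Values of the deposited signal are CPM that the authors scaled with a factor for each library, as the column sums show. Whole reads were recovered by dividing each column by its smallest value above 0; 100% of the values in each column were whole within a tolerance of 1e-04. The columns were assigned to groups by name, and the number of other columns was 0. Depth was 5405245 to 22558400 reads per library. Reads are not counted by molecular identifiers.

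Genes whose mean reached 1 CPM over the 6 libraries (14523) were fitted as log2(CPM + 1) with limma 3.58.1 (R 4.3.3), with group as the only term and a variance trend, as two-sided tests, and p-values were adjusted over all of them by Benjamini and Hochberg's method. The design had assumed CPM; the same test was used for the scaled CPM. Alternatives were DESeq2 1.42.0 and edgeR 4.0.16, both on recovered reads (edgeR called 0 genes and DESeq2 35 higher and 130 lower), other pseudocounts, filters, scalings and weights, leaving out libraries, and the name prefix as a batch term. The steps were tested on simulated data.

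The 54 genes, their roles, the marker lists and the other presynaptic genes were chosen with earlier results of these data known, so no test over a list is given. Genes with values in every library are, per role, up to 4 with the smallest p and the most abundant, with the gene of negative difference; of the other presynaptic genes, in each direction the 3 of smallest p; further genes of the 54 were picked after their values were seen. GENCODE M21 (GRCm38, the same assembly as mm10) gave positions and exon lengths, and promoter windows are from RefSeq on GRCm38.p6. Tspoap1, on the list of other presynaptic genes, was not analysed here.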

Additional observations from a re-analysis of the deposited data

How the results depend on the processing

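Over 21 alternatives, the medians of the 54 genes and of the 4 roles stayed positive. The median of the 54 was 0.51 to 0.96, that of the active zone 0.725 to 1.22, of the SNARE genes 0.59 to 1.09, of the vesicle genes 0.37 to 0.89, of endocytosis 0.205 to 0.61 and of the other presynaptic genes 0.26 to 0.57. Counts of genes called by limma were 0 higher and 0 lower. Library weights gave 1059 genes higher, 30 of them among the 54, and 1366 lower. DESeq2 gave 35 higher, 2 of them among the 54, and 130 lower. The prefix as a batch term gave 1 higher and 7 lower, and leaving out both combined libraries gave 75 lower. Leaving out 1 library gave 0 to 45 genes called lower, the 45 without vehicle combined, and 0 called higher. The cause of these differences was not tested. Of 1133 values of single genes, 15 changed sign, in 8 of the 54 genes, none of them called. When a library was left out, Syp ranged -0.058 to 0.760, Sv2a -0.115 to 0.462, Sv2c -0.108 to 0.886, Rab3a -0.090 to 1.255, Doc2a -0.253 to 0.823, Napa -0.201 to 0.286 and Erc1 -0.178 to 0.210. Syt4 was 0.30 with library weights and 0.018 without both combined libraries, where Napa was -0.074 and Erc1 -0.064. No paired analysis was possible because the column names of the groups share only the replicate number 1, and the fit blocked on the name prefix, given above, is the nearest to it. The lowest read counts were 4 for Cplx3 and 14 for Doc2a in vehicle combined, and differences of such genes are limited by depth.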

Other observations

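Both libraries named combined, of either group, stood on the same side of the other 4 for a few of the 54 genes. They were above the other 4 for Unc13c, Rims2, Rims3 and Erc1 (4 genes, 7.41%, against 11.3% of all genes tested) and below them for Syp, Sv2a, Rab3b, Doc2a, Cplx3 and Napa (6 genes, 11.1%, against 15.4%), so these shares were not above those of all genes. Rims3, a short RIM isoform gene, had 32.4, 16.7 and 53.8 CPM in the 15-HETrE libraries, against 20.0, 8.95 and 39.2 CPM in the vehicle libraries. Doc2a, a calcium sensor of spontaneous and asynchronous release, had 12.5, 9.37 and 3.92 CPM in the 15-HETrE libraries, against 14.6, 6.07 and 2.52 CPM in the vehicle libraries. These genes were chosen after their values were seen.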
